A study of Drosophila melanogaster with 26 samples.

Results

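The repeats described here are the rows of the deposited ovary RNA-seq tables that are named suste, stellate, stellateHet, mst40 or dodeca_satellite with a dot and a number behind the name. They were chosen by these names alone, and there are 5293 of them among the 72525 rows of each table: 3739 suste rows, 893 dodeca_satellite rows, 287 stellateHet rows, 242 stellate rows and 132 mst40 rows. The sources used here do not say what the number in a name stands for, so a row is treated as 1 annotated copy or fragment of a repeat, and its length and place are not known. Near-identical copies can take each other's reads, so single rows are not independent of one another.

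*Stellate* is a family of tandem repeats on the X chromosome of *Drosophila melanogaster* whose protein resembles the regulatory beta subunit of casein kinase II. *Suppressor of Stellate*, *Su(Ste)*, is a related tandem repeat on the Y chromosome that is transcribed in the testis into precursors of piRNAs, the small RNAs that guide PIWI proteins to matching transcripts, and these piRNAs silence *Stellate*. When they are missing, crystals of *Stellate* protein form in the male germline and fertility falls; females carry no Y chromosome. *Su(Ste)* repeats also carry a copy of the DNA transposon *hoppel*; its insertions stand in the tables under FBgn0005673. Dodeca satellite is a simple repeat near the centromere of chromosome 3. For mst40 the tables give a name only.

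The NSL (nonspecific lethal) complex is a chromatin complex that binds promoters of active genes, and the study asked what its subunits do in the female germline. Hairpin RNAs against *white* (a control gene), *nsl1*, *nsl2* or *nsl3* were driven by *nanos*-GAL4, which is active in germline cells, in F1 females that were fed yeast for 3 to 5 days before their ovaries were dissected and pooled. The hairpins came from the Bloomington stocks 35573 for *white*, 58328 for NSL1 and 58162 for NSL2 and, by the record, from the Vienna stock 108002 for NSL3, for which the study's methods name a different Vienna stock. Each group is therefore 1 fly stock, and the knockdown and the stock's genetic background, including its number of repeat copies, cannot be told apart. Each of the 4 groups had 3 libraries, 12 in all. The same 3 *white* RNAi libraries were the control in all 3 tables, so the comparisons share them, whereas the study's methods name ovaries of virgin *white* RNAi females as the reference for the rudimentary NSL1 and NSL3 RNAi ovaries. That virgin library was not analysed here.

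The libraries held between 12482452 and 23021900 assigned reads, with the *white* RNAi libraries the deepest. The targeted transcripts were lower in their own knockdown but none fell past the 2-fold minimum used for calls. Reads of *nsl1* (listed as *wah*) were 8080, 8311 and 7367 in *white* RNAi and 3133, 2888 and 3258 in NSL1 RNAi, a log2FC of -0.88. Those of *nsl2* (*dgt1*) went from 2062, 2195 and 1731 to 832, 1282 and 1357 in NSL2 RNAi, a log2FC of -0.54, and those of *nsl3* (*Rcd1*) from 6281, 6922 and 5802 to 1835, 2581 and 1712 in NSL3 RNAi, a log2FC of -0.92. The 3 transcripts did not separate the knockdowns, since *dgt1* fell in NSL1 RNAi as well (log2FC -1.19). Cell type markers moved strongly in NSL1 and NSL3 RNAi and are given beside the results below. In bulk ovaries, fewer cells of a type and less RNA per cell cannot be told apart.

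The transcripts of suste, by far the most abundant of these repeats, were up-regulated in all 3 knockdowns, most in NSL1 RNAi and least in NSL2 RNAi. Summed over all suste rows, the 3 *white* RNAi libraries held 228, 307 and 426 reads. The NSL1 RNAi libraries held 1596, 1931 and 1949, the NSL2 RNAi libraries 574, 880 and 600, and the NSL3 RNAi libraries 1359, 897 and 1165. Every knockdown library held more suste reads than every *white* RNAi library, although the latter were sequenced more deeply. Per 1000000 assigned reads, suste took 14.8 ± 5.09 (SD, n = 3) in *white* RNAi, 119 ± 13.2 in NSL1 RNAi, 37.5 ± 8.30 in NSL2 RNAi and 82.9 ± 20.5 in NSL3 RNAi.

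**Figure D1:**
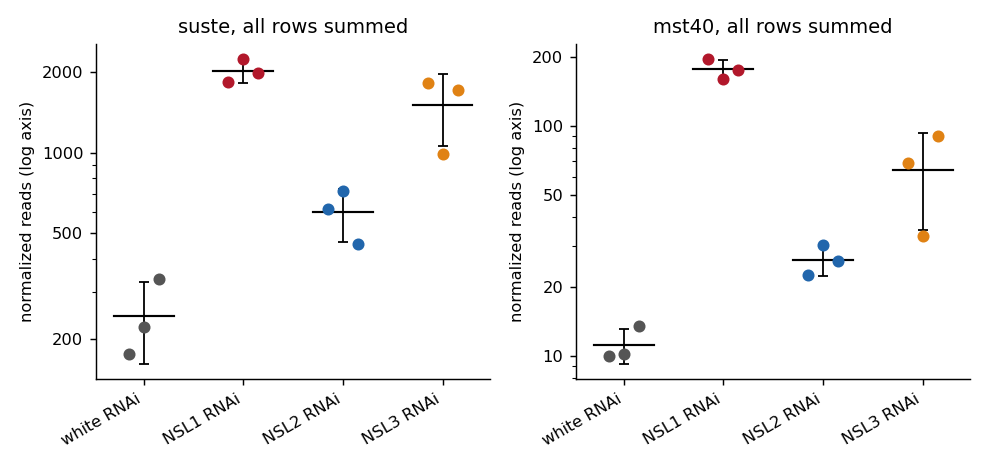
Normalized reads (log axis) of all suste rows, left, and all mst40 rows, right, in the 12 libraries, scaled together; each point is a library, the line is the group mean and the bar its SD. All knockdown libraries lie above the 3 *white* RNAi libraries, and in NSL3 RNAi replicate 2 is the lowest point for both repeats.

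Tested with limma on log2(normalized reads + 1) among annotated genes, transposon families, repeats and piRNA clusters, suste rose by a log2FC of 3.02 ± 0.20 (SE, adjusted p = 1.03e-06) in NSL1 RNAi, from 272 ± 89.5 to 2143 ± 213 normalized reads. In NSL2 RNAi it rose by 1.38 ± 0.25 (adjusted p = 0.00653), and in NSL3 RNAi by 2.58 ± 0.29 (adjusted p = 0.000277). A change was called at an adjusted p under 0.05 and a fold above 2. By that rule 33.3% of 9302 features were called higher in NSL1 RNAi, and suste stood at place 1872 from the highest log2FC. The background was 10.1% of 8252 features in NSL2 RNAi, with suste at place 617, and 30.8% of 9102 in NSL3 RNAi, with suste at place 1819. A rise of this size was therefore common among all features in NSL1 and NSL3 RNAi and less so in NSL2 RNAi.

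The other repeat with a measurable level, mst40, was up-regulated in the same order. Its rows held 13, 14 and 17 reads in *white* RNAi, 169, 138 and 171 in NSL1 RNAi, 21, 37 and 34 in NSL2 RNAi and 51, 30 and 61 in NSL3 RNAi. No knockdown library overlapped the control libraries, but the *white* RNAi level rests on few reads. On the log2 scale mst40 rose by 3.81 ± 0.22 in NSL1 RNAi (adjusted p = 3.58e-07), by 1.24 ± 0.27 in NSL2 RNAi (adjusted p = 0.0127) and by 2.27 ± 0.40 in NSL3 RNAi (adjusted p = 0.00182). The call in NSL2 RNAi was lost without *white* RNAi replicate 2 (log2FC 1.17, adjusted p = 0.0537).

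**Figure D2:**
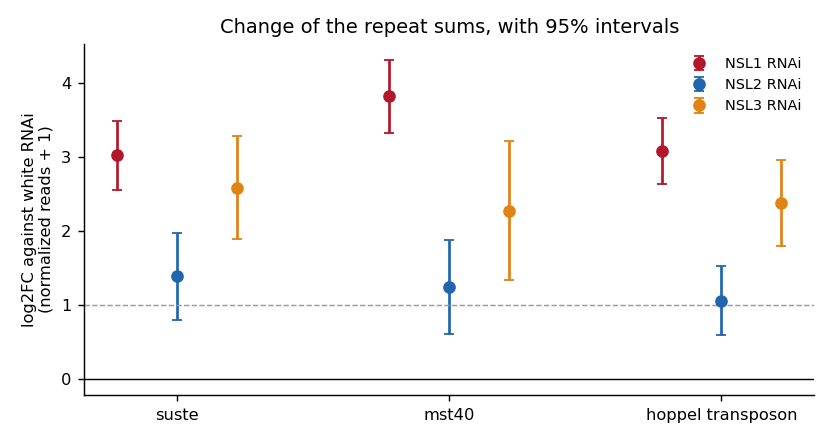
The log2FC of suste, mst40 and the transposon *hoppel* in each knockdown against *white* RNAi, with 95% intervals from limma; the dashed line is the 2-fold minimum. For suste the values are 3.02, 1.38 and 2.58 in NSL1, NSL2 and NSL3 RNAi; the lower end of the interval lies under the 2-fold line for all 3 names in NSL2 RNAi.

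Between the knockdowns, with all 12 libraries scaled together, suste was higher in NSL1 than in NSL2 RNAi by 1.78 ± 0.27 on the log2 scale (adjusted p = 9.21e-05) and higher in NSL3 than in NSL2 RNAi by 1.31 ± 0.27 (adjusted p = 0.000966). Between NSL1 and NSL3 RNAi the difference of 0.47 ± 0.27 did not pass (95% interval -0.13 to 1.06, adjusted p = 0.19). For mst40 all 3 differences passed: 2.71 ± 0.32 between NSL1 and NSL2 RNAi (adjusted p = 1.45e-05), 1.56 ± 0.32 between NSL1 and NSL3 RNAi (adjusted p = 0.00373) and 1.15 ± 0.32 between NSL3 and NSL2 RNAi (adjusted p = 0.00665). The last was lost without NSL3 RNAi replicate 3 (log2FC 0.85). Over all features, 30.4% of 9285 were called higher in NSL1 than in NSL2 RNAi, 6.93% higher in NSL1 than in NSL3 RNAi and 27.7% higher in NSL3 than in NSL2 RNAi.

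The transposon *hoppel*, with 2372 insertion rows in the tables, moved by similar amounts. Its log2FC was 3.08 ± 0.19 in NSL1 RNAi, 1.05 ± 0.20 in NSL2 RNAi and 2.38 ± 0.25 in NSL3 RNAi, with adjusted p-values of 6.76e-07, 0.00758 and 0.000173. The call in NSL2 RNAi was lost without NSL2 RNAi replicate 2 (0.91), *white* RNAi replicate 1 (0.95) or *white* RNAi replicate 2 (0.95). How reads that match both *hoppel* and *Su(Ste)* were shared between the 2 names is not given in the sources used here, so the values of suste and *hoppel* may hold some of the same transcripts.

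The remaining repeats were at or near the limit of detection. Over the 242 stellate rows, 0 reads were counted in any of the 12 libraries, which allows up to 0.0459 reads per 1000000 in *white* RNAi, 0.0651 in NSL1 RNAi, 0.0543 in NSL2 RNAi and 0.0719 in NSL3 RNAi (3 reads over the group, counting error only). The stellateHet rows, the heterochromatic *Stellate* copies by their name, held 0, 0 and 2 reads in *white* RNAi, 7, 9 and 6 in NSL1 RNAi, 5, 3 and 0 in NSL2 RNAi and 3, 0 and 4 in NSL3 RNAi. The 3 NSL1 RNAi libraries lay above the control libraries, while NSL2 and NSL3 RNAi overlapped them. With 22 reads against 2, the ratio of NSL1 to *white* RNAi was 16.0 with a 95% counting interval of 3.94 to 141. The ratio was 4.54 (0.907 to 43.9) with NSL2 RNAi, an interval that includes 1, and 5.93 (1.13 to 58.5) with NSL3 RNAi. Only 7 of the 287 stellateHet rows had a read, and stellateHet.1 and stellateHet.2 held 14 reads each of the 39, with stellateHet.1101 next at 5. Dodeca satellite had 0 reads in *white* RNAi, 5 in NSL1 RNAi, 1 in NSL2 RNAi and 6 in NSL3 RNAi, spread over 9 of 893 rows with at most 2 reads each; dodeca_satellite.701, dodeca_satellite.505 and dodeca_satellite.413 had 2. The 0 reads in *white* RNAi allow the same 0.0459 per 1000000 as for stellate, and no fold is given on so few reads. None of these 3 repeats reached the mean of 10 normalized reads needed for a test.

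The annotated genes of the same families were at or near 0. Of 14 *Stellate* genes in the tables, all on the X chromosome in the Release 6 annotation, 13 had 0 reads in all 12 libraries and 1 had a single read, in NSL2 RNAi replicate 3. Of 42 *Su(Ste)* genes, 31 of them placed on the Y chromosome by that annotation, 41 had 0 reads and 1 had a single read, in NSL3 RNAi replicate 2. The 11912 reads of the suste rows therefore stood beside 1 read for the annotated *Su(Ste)* genes, and the rule by which reads were given to one or the other is not stated. Of 12 protein-coding genes of the Y chromosome, 6 had 0 reads throughout, and the list as a whole held 0 or 1 read in 10 of the libraries and 3 in NSL3 RNAi replicate 2. In NSL1 RNAi replicate 3 it held 22, of which 18 fell on *fdy*, a gene nearly identical to autosomal *vig2*.

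The suste reads were spread over many rows. At least 1 read was counted in 718 of the 3739 rows over all libraries, and the other 3021 were at 0. In a single library the number of rows with a read was 111, 132 and 152 in *white* RNAi, 341, 381 and 400 in NSL1 RNAi, 197, 225 and 213 in NSL2 RNAi and 239, 196 and 261 in NSL3 RNAi. More rows were seen where more suste reads were counted. At equal numbers, 228 suste reads drawn from each library, the expected number of rows was 108 to 111 in *white* RNAi, 109 to 116 in NSL2 RNAi, 122 to 128 in NSL1 RNAi and 95.5 to 105 in NSL3 RNAi. The NSL1 RNAi libraries thus spread the same number of reads over more rows than any other group, and the NSL3 RNAi libraries over fewer; with 3 libraries against 3 an exact permutation test cannot go below 0.1.

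**Figure D3:**
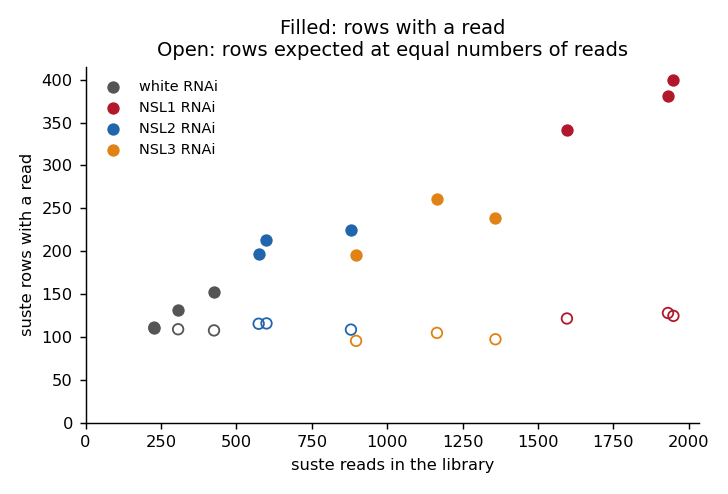
Number of suste rows with a read against the number of suste reads in each of the 12 libraries (filled points), and the number expected when each library is reduced to 228 suste reads (open points). Filled points rise with the reads from 111 to 400, whereas open points stay between 95.5 and 128.

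By the 2 leading rows, reads were again most concentrated in NSL3 RNAi, but NSL2 RNAi lay beside NSL1 RNAi and under *white* RNAi. The 2 rows with most reads in a group held 14.2% of its suste reads in *white* RNAi, 8.24% in NSL1 RNAi, 8.42% in NSL2 RNAi and 18.6% in NSL3 RNAi. In NSL1 RNAi, 557 rows had a higher mean than in *white* RNAi and 44 a lower one, and the 10 rows with the largest increase made up 24.8% of the increase of the sum. In NSL2 RNAi, 346 rows were higher and 112 lower, and the first 10 rows made up 37.2%. In NSL3 RNAi, 385 were higher and 80 lower, and the first 10 made up 39.8%. Over all libraries 55 rows had 50 or more reads. NSL1 RNAi had the highest mean in 32 of them, NSL3 RNAi in 20 and NSL2 RNAi in 3, and *white* RNAi the lowest in 48. NSL1 and NSL3 RNAi held 5476 and 3421 suste reads, against 961 in *white* RNAi. Rows could reach 50 reads through the groups where they were high, so these counts describe the rows and do not support the sums.

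Most suste rows were too low for a test of their own. In NSL1 RNAi, 22 rows reached a mean of 10 normalized reads and 21 of them rose, with a median log2FC over the 22 of 2.70 beside 0.08 over all 10061 rows tested, of which 38.2% were called higher. In NSL2 RNAi 4 of 9 rose, and the other 5 had log2FC between 0.27 and 1.06, beside 12.2% of 8489 rows. In NSL3 RNAi 17 of 17 rose, beside 32.2% of 9300 rows. A row that reached the minimum only through its knockdown libraries had to be higher there, so these counts describe the rows and do not support the sums. In the NSL1 comparison only suste.1360 and suste.6849 reached a mean of 10 in *white* RNAi.

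The row suste.1360 held 13, 19 and 41 reads in *white* RNAi, 58, 76 and 82 in NSL1 RNAi, 24, 41 and 25 in NSL2 RNAi and 55, 43 and 25 in NSL3 RNAi. It rose in NSL1 RNAi (log2FC 2.13 ± 0.40, adjusted p = 0.000847) and NSL3 RNAi (1.52 ± 0.48, adjusted p = 0.0209), where the call was lost without NSL3 RNAi replicate 1 (1.27), *white* RNAi replicate 1 (1.19) or *white* RNAi replicate 2 (1.39). In NSL2 RNAi its log2FC was 0.67 ± 0.44 (adjusted p = 0.257), and 1.14 without *white* RNAi replicate 3, where it passed. The row suste.6849, named after its values were seen, changed less, with 21, 22 and 20 reads in *white* RNAi, 12, 42 and 33 in NSL1 RNAi, 20, 31 and 31 in NSL2 RNAi and 28, 33 and 33 in NSL3 RNAi. Its log2FC of 1.25 ± 0.26 passed in NSL3 RNAi (adjusted p = 0.00377), but 0.73 in NSL1 RNAi and 0.60 in NSL2 RNAi did not.

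The 2 suste rows with the highest means over all libraries were nearly silent in *white* RNAi, low in NSL2 RNAi and high in NSL1 and NSL3 RNAi. The row suste.7641 held 0, 0 and 2 reads in *white* RNAi, 67, 65 and 103 in NSL1 RNAi, 6, 13 and 7 in NSL2 RNAi and 150, 71 and 116 in NSL3 RNAi. The row suste.7592 held 0, 1 and 0 reads in *white* RNAi, 55, 77 and 81 in NSL1 RNAi, 5, 6 and 2 in NSL2 RNAi and 140, 64 and 95 in NSL3 RNAi. No knockdown library overlapped *white* RNAi in either row, and NSL2 RNAi lay under NSL1 and NSL3 RNAi in both. For suste.7641 the ratio to *white* RNAi was 171 in NSL1 RNAi (95% counting interval 46.9 to 1422) and 286 in NSL3 RNAi (78.4 to 2368), and in NSL2 RNAi it was 14.8 (3.70 to 128). These 2 rows made up 11.9% and 10.5% of the increase of the suste sum in NSL3 RNAi and 4.83% and 4.43% of that in NSL1 RNAi.

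**Figure D4:**
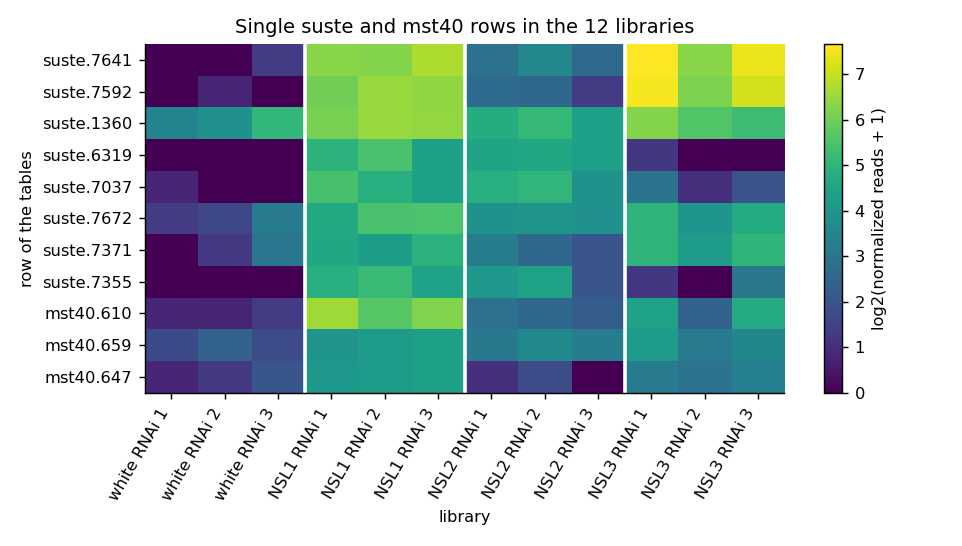
Normalized reads, as log2(value + 1) by colour, of the suste and mst40 rows with the highest means or the largest called changes (rows) in the 12 libraries (columns, groups parted by white lines). The rows suste.7641 and suste.7592 are bright in NSL1 and NSL3 RNAi, whereas suste.6319, suste.7037 and suste.7355 are bright in NSL1 and NSL2 RNAi.

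A second set of rows had the opposite order between NSL2 and NSL3 RNAi. The row suste.6319 held 0 reads in all 3 *white* RNAi libraries, 26, 37 and 19 in NSL1 RNAi, 20, 28 and 25 in NSL2 RNAi and 1, 0 and 0 in NSL3 RNAi. The row suste.7037 held 1, 0 and 0 reads in *white* RNAi, 37, 24 and 19 in NSL1 RNAi, 25, 39 and 19 in NSL2 RNAi and 5, 1 and 2 in NSL3 RNAi. The row suste.7355 held 0 reads in *white* RNAi, 24, 30 and 20 in NSL1 RNAi, 15, 25 and 4 in NSL2 RNAi and 1, 0 and 5 in NSL3 RNAi. All 3 rows were at or near 0 in *white* and NSL3 RNAi and read in every NSL1 and NSL2 RNAi library, and only for suste.7355 did NSL2 and NSL3 RNAi overlap. In normalized reads, against a floor of 3 reads over the control group and without the counting error of the knockdown reads, suste.6319 was at least 39.8-fold higher in NSL1 RNAi and at least 27.6-fold higher in NSL2 RNAi.

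The test between knockdowns on single rows, added after these values were seen, gave suste.6319 a log2FC of -4.05 ± 0.43 in NSL3 against NSL2 RNAi (adjusted p = 7.02e-06) and suste.7037 one of -2.59 ± 0.53 (adjusted p = 0.000843). For suste.7355 the -2.08 ± 0.76 (adjusted p = 0.0260) did not hold with edgeR (-2.28, adjusted p = 0.056), nor without NSL3 RNAi replicate 2 (-1.36) or 1 (-1.98) or NSL2 RNAi replicate 1 (-1.79) or 2 (-1.62). In the same contrast suste.7592 was higher in NSL3 RNAi by 4.77 ± 0.46 (adjusted p = 3.14e-06) and suste.7641 by 4.10 ± 0.46 (adjusted p = 1.23e-05). Of 20 suste rows tested in it, 13 were called higher and 3 lower in NSL3 RNAi, beside 28.0% and 10.6% of 9881 rows. In NSL1 against NSL2 RNAi 15 of 20 were higher, beside 32.5%, led by suste.7592 (4.11 ± 0.46) and suste.7641 (3.39 ± 0.46), with adjusted p-values of 8.54e-06 and 3.89e-05. In NSL1 against NSL3 RNAi 3 of 20 were higher, beside 9.78%: suste.6319 by 4.51 ± 0.43 (adjusted p = 1.88e-05), suste.7355 by 3.38 ± 0.76 (adjusted p = 0.00506) and suste.7037 by 2.88 ± 0.53 (adjusted p = 0.00148). Rows could pass the minimum mean through the groups where they were high, so these counts and values only describe the rows. An NSL2 RNAi mean of at least 10 was reached by 10 of the 20. Of those, 6 were called, in either direction, in NSL3 against NSL2 RNAi and 5 in NSL1 against NSL2 RNAi. An NSL3 RNAi mean of at least 10 was reached by 17, and 0 of those were called in NSL1 against NSL3 RNAi.

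The 55 suste rows with 50 or more reads could reach that minimum through the groups where they were high, so the counts here only describe them. Among them, 47 had a higher mean in NSL3 than in NSL2 RNAi and 8 a lower one. In 7 of these 8 the NSL2 RNAi mean was at least 4 times that of NSL3 RNAi; beside the 3 rows above they were suste.623, suste.6321, suste.7000 and suste.7139, chosen after their values were seen. Together the 7 rows held 124, 144 and 85 reads in the NSL1 RNAi libraries and 100, 153 and 83 in the NSL2 RNAi libraries, but 7, 1 and 11 in NSL3 RNAi and 1, 0 and 1 in *white* RNAi. The hairpin stocks for *white*, NSL1 and NSL2 RNAi came from Bloomington and that for NSL3 RNAi from Vienna. By the study's list of fly lines, the NSL1 and NSL2 hairpins shared a genomic insertion site, and the *white* hairpin had a different site. The parts of stock centre, insertion site and repeat copy number in these rows were not tested and cannot be told apart from the knockdown.

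**Figure D5:**
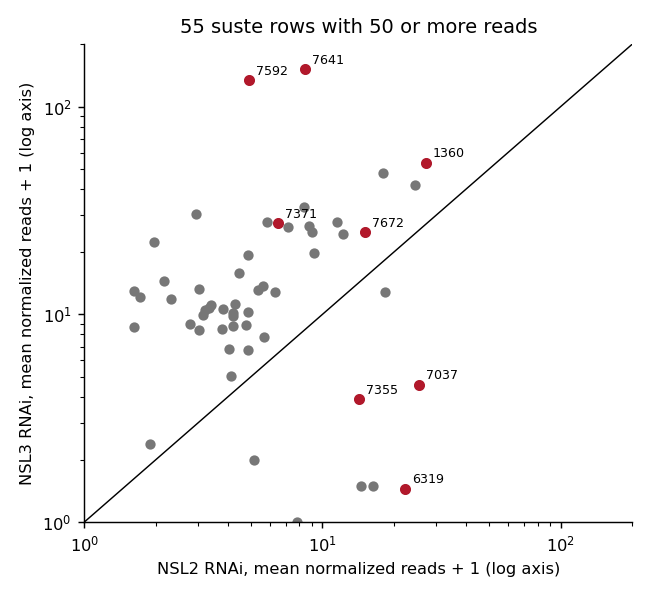
Mean normalized reads + 1 (log axes) in NSL2 RNAi, horizontal, and NSL3 RNAi, vertical, for the 55 suste rows with 50 or more reads, with equality as a line; red points with a row number are the rows named by the rule on means and changes. Above the line lie 47 rows, and 7 of the 8 rows below it are at least 4 times higher in NSL2 RNAi.

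The row suste.7672 was among the 3 rows with the largest called rise in NSL2 RNAi, with 2, 3 and 10 reads in *white* RNAi, 21, 37 and 43 in NSL1 RNAi, 13, 18 and 18 in NSL2 RNAi and 23, 14 and 17 in NSL3 RNAi. Its log2FC in NSL2 RNAi was 1.98 ± 0.51 (adjusted p = 0.0203) and lost its call without *white* RNAi replicate 1 (1.61) or 2 (1.78). Row suste.7371 rose by 3.28 ± 0.76 in NSL3 RNAi (adjusted p = 0.00577) and by 3.17 ± 0.71 in NSL1 RNAi (adjusted p = 0.0024), with 0, 2 and 9 reads in *white* RNAi and 16 or more in each library of these knockdowns. The control libraries were uneven in both rows, replicate 3 being the highest, as it was for the suste sum.

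In mst40 the reads fell on 59 of 132 rows, and mst40.610 held the most over the 12 libraries, with the largest count in NSL1 and NSL3 RNAi. It held 1, 1 and 2 reads in *white* RNAi, 81, 43 and 71 in NSL1 RNAi, 6, 6 and 5 in NSL2 RNAi and 15, 4 and 17 in NSL3 RNAi. This row made up 43.0% of the increase of the mst40 sum in NSL1 RNAi, 26.2% in NSL2 RNAi and 29.5% in NSL3 RNAi. In *white* and NSL2 RNAi mst40.659 held more reads, 12 and 32 against 4 and 17, and made up 40.2% of the increase in NSL2 RNAi. The row mst40.610 rose by 5.16 ± 0.35 on the log2 scale in NSL1 RNAi (adjusted p = 1.24e-06). It was higher there than in NSL2 RNAi by 3.57 ± 0.54 (adjusted p = 8.22e-05) and than in NSL3 RNAi by 2.29 ± 0.54 (adjusted p = 0.00623). In NSL3 against NSL2 RNAi its 1.28 ± 0.54 (adjusted p = 0.047) lost its call in 11 of the 12 fits that left out a library. The next rows were mst40.659, with 3, 6 and 3 reads in *white* RNAi and 13, 15 and 19 in NSL1 RNAi (log2FC 2.18 ± 0.33, adjusted p = 0.000222), and mst40.647, with 1, 2 and 4 reads and 14, 15 and 19 (2.81 ± 0.39, adjusted p = 0.000124). Leaving out any 1 NSL1 RNAi library took both under the minimum mean, which left 1 of 3 mst40 rows. Of these 3 rows, 0 reached the minimum mean in *white* RNAi. They passed it only through their NSL1 RNAi libraries and had to be higher there, so their values only describe the rows. Over all rows tested in NSL1 RNAi, 38.2% were called higher. Between knockdowns, mst40.610 could also pass through the groups where it was high, with a mean of 5.04 in NSL2 RNAi.

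The sums were also taken without the 2 suste rows and the 1 mst40 row that increased most in a comparison. In NSL1 and NSL3 RNAi these were suste.7641, suste.7592 and mst40.610, and the log2FC was then 2.90 and 2.30 for suste and 3.19 and 2.01 for mst40. In NSL2 RNAi they were suste.7037, suste.6319 and mst40.659, and it was 1.27 for suste (adjusted p = 0.00924) and 1.10 for mst40 (adjusted p = 0.0382). All 6 values stayed past both thresholds. Over the rows with a read in *white* RNAi, 251 of suste and 16 of mst40, the log2FC in NSL2 RNAi was 0.86 for suste and 0.94 for mst40, under the 2-fold minimum, whereas it was 2.54 and 2.40 for suste and 3.26 and 1.81 for mst40 in NSL1 and NSL3 RNAi. Both choices were made after the data were seen, and the second favours the control by its construction.

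Genes of the piRNA pathway, through which *Su(Ste)* acts in the testis, were mostly lower in the knockdowns with rudimentary ovaries. Of 16 factors that act in *Stellate* silencing or in the same pathway, 7 fell in NSL1 RNAi, where 19.9% of all features were called lower, and 11 fell in NSL3 RNAi, beside 14.2%. Their median log2FC was -0.94 and -1.40, beside -0.08 and -0.09 over all features. The 12 germline markers described below, with *vas* in both lists, had medians of -1.28 and -1.10. DESeq2 called 6 factors lower and 1 higher in NSL1 RNAi and 10 lower in NSL3 RNAi, and edgeR called 7 and 10 lower. At an unadjusted p under 0.05, 13 were lower and 2 higher in NSL1 RNAi, and 15 lower and 0 higher in NSL3 RNAi. *AGO3*, the PIWI protein that partners with *aub* in piRNA amplification, fell by 2.55 ± 0.18 on the log2 scale in NSL1 RNAi (adjusted p = 1.36e-06) and by 1.69 ± 0.26 in NSL3 RNAi (adjusted p = 0.00112). *krimp*, a Tudor protein of the nuage where they meet, fell by 1.84 ± 0.06 and 1.77 ± 0.31 (adjusted p = 3.15e-08 and 0.00175). *aub* itself fell in NSL3 RNAi (log2FC -1.08 ± 0.23, adjusted p = 0.00385), and its -0.32 in NSL1 RNAi did not reach the 2-fold minimum. *armi*, a helicase of primary piRNA production, had a log2FC of 0.84 in NSL1 RNAi and -0.67 in NSL3 RNAi, both under it.

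In NSL2 RNAi 0 of the 16 factors were called lower by limma, edgeR or DESeq2, beside 1.15% of all features. Without the fold minimum limma called 6 of them lower. At an unadjusted p under 0.05, 7 were lower and 2 higher. The median log2FC of the 16 factors was -0.11, beside -0.03 over all features. The largest fall was that of *rhi*, the HP1 protein that marks dual-strand piRNA clusters, with a log2FC of -0.48 ± 0.08 (adjusted p = 0.00348), followed by *AGO3* with -0.40 ± 0.08 (adjusted p = 0.00977). *aub* was at 0.32 ± 0.05 (adjusted p = 0.0031), in the other direction. The part of these factors in the rise of suste and mst40 was not tested.

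Of 8 genes of casein kinase II, whose beta subunit *Stellate* resembles, and of the related *Ssl* names, 5 could be tested; limma called 3 lower in NSL1 RNAi, 0 in NSL2 RNAi and 2 in NSL3 RNAi, and none higher, beside 19.9%, 1.15% and 14.2% of all features called lower. The other tools called fewer: edgeR and DESeq2 2 lower in NSL1 RNAi, and in NSL3 RNAi edgeR 0 and DESeq2 0 lower and 1 higher. At an unadjusted p under 0.05, 0 were lower and 1 higher in NSL2 RNAi, where edgeR and DESeq2 called 0. *CkIIalpha*, the catalytic subunit, had a log2FC of -1.02 ± 0.05 in NSL1 RNAi (adjusted p = 1.5e-07), 0.00 in NSL2 RNAi and -1.02 ± 0.15 in NSL3 RNAi (adjusted p = 0.00103), just past the minimum where it fell. *CkIIbeta* was at -0.41, -0.05 and -0.27, none of them called. *Ssl*, named for its likeness to *Su(Ste)*, held 0, 1 and 0 reads in *white* RNAi, 2, 0 and 0 in NSL1 RNAi, 1, 0 and 1 in NSL2 RNAi and 10, 0 and 2 in NSL3 RNAi. *CkIIbeta2* was read in NSL3 RNAi only, 2, 0 and 5 times.

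Markers of cell types changed strongly in NSL1 and NSL3 RNAi and less in NSL2 RNAi. Per 1000000 assigned reads, the 12 germline markers, led by *osk* and *nos*, had 5078 to 5143 reads with *white* RNAi, 1755 to 2034 with NSL1 RNAi, 4244 to 4601 with NSL2 RNAi and 1117 to 2975 with NSL3 RNAi. In NSL1 RNAi 8 of them fell and *bgcn* rose, and in NSL3 RNAi 6 fell and *bgcn* rose, beside 19.9% and 14.2% of all features called lower. In NSL2 RNAi limma called 0 of them, with 5 lower and 2 higher at an unadjusted p under 0.05 and 0 called by edgeR or DESeq2. The 10 muscle markers had 458 to 494 reads per 1000000 with *white* RNAi, 11192 to 14098 with NSL1 RNAi, 487 to 563 with NSL2 RNAi and 11988 to 22944 with NSL3 RNAi, with *Act88F* at or near 0 throughout. Of the 9 tested, 8 rose in NSL1 and NSL3 RNAi and 1 in NSL2 RNAi, beside 33.3%, 30.8% and 10.1% of all features, and their median log2FC was 6.54, 7.21 and 0.63 in NSL1, NSL3 and NSL2 RNAi. At an unadjusted p under 0.05, 7 of the 9 were higher in NSL2 RNAi and 0 lower. The 8 markers of follicle cells and other ovarian soma had 306 to 338 reads per 1000000 with *white* RNAi, 1238 to 1296 with NSL1 RNAi, 321 to 363 with NSL2 RNAi and 782 to 1087 with NSL3 RNAi. Of these, 7 rose in NSL1 RNAi, 4 in NSL3 RNAi and 2 in NSL2 RNAi, while *cad*, which the germline also expresses, fell by 3.02 on the log2 scale with NSL1 RNAi and by 1.77 with NSL3 RNAi. The 2 that rose in NSL2 RNAi were *tj* (log2FC 1.05) and *slbo* (2.51). Of 7 tested there, 4 were higher and 1 lower at an unadjusted p under 0.05. The part of these shifts in the rise of suste and mst40 was not tested.

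Within NSL3 RNAi the library with the fewest suste and mst40 reads for its depth, replicate 2, also had the most germline reads, 45010 against 15787 and 21841, and the fewest muscle reads, 181347 against 324259 and 251754. Without it suste rose by 2.83 and mst40 by 2.65 on the log2 scale in NSL3 RNAi. This rests on replicate 2 alone, and a link between the repeats and these markers was not tested.

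Genes of the testis, the tissue in which *Su(Ste)* is normally at work, were mostly low. Of 28 testis genes, 14 had a read in *white* RNAi, 27 in NSL1 RNAi, 19 in NSL2 RNAi and 26 in NSL3 RNAi, and their summed reads were 20622 to 24440, 4067 to 4474, 14585 to 19388 and 3345 to 9569, nearly all of them from *Pen*, an importin that the ovary also expresses. Between 3 and 5 of the 28 could be tested in a comparison, and 2 rose and 1 fell in NSL1 and in NSL3 RNAi, beside 33.3% and 30.8% of all features higher and 19.9% and 14.2% lower; in NSL2 RNAi limma, edgeR and DESeq2 called 0, with 1 higher and 0 lower at an unadjusted p under 0.05. *fzo*, a mitochondrial fusion protein of the male germline, rose by 3.34 on the log2 scale in NSL1 RNAi and by 2.58 in NSL3 RNAi. *mia* rose from 31, 26 and 22 reads with *white* RNAi to 97, 104 and 134 in NSL1 RNAi and 116, 84 and 65 in NSL3 RNAi (adjusted p = 4.71e-06 and 0.00038), while *Pen* had a log2FC of -2.04 and -1.54. The protamine genes *Mst35Ba* and *Mst35Bb* and the sperm chromatin gene *Mst77F* had 0 reads in *white* RNAi and at most 6 in any knockdown library. Named after its values were seen, *sa* was too low for a test. It held 0 reads in *white* RNAi, 7, 18 and 30 in NSL2 RNAi, 2, 0 and 2 in NSL1 RNAi and 1, 0 and 1 in NSL3 RNAi.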

How the data were processed

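Ovary RNA of 4 groups was sequenced in 3 libraries each. The authors depleted ribosomal RNA, removed remaining ribosomal reads with bowtie2, aligned to dm3 with STAR inside piPipes and counted with featureCounts or eXpress; versions and the strand used in counting are not given in the sources used here. Deposited values are a signal: reads that the authors divided by a size factor for each library. The study names ERCC size factors, whereas the factors recovered here equalled each library's median ratio computed on every row of its table. The deposited columns of mean, log2 fold change, error, statistic and p-value come from the authors' own DESeq2 comparison and were not used. Whole reads were recovered for 100% of 1305450 values (tolerance 1e-06 reads), and *white* RNAi reads were identical in the 3 tables (0 values differed).

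Rows of a transposon family or repeat were summed. limma 3.58.1 (R 4.3.3) with its trended prior variance was run within each table on log2(value + 1) of features with a mean of at least 10; calls needed a Benjamini-Hochberg adjusted p under 0.05 over all features and a fold above 2. Differences between knockdowns used recovered reads of 12 libraries scaled together by the median of ratios. Where few reads were counted, ratios carry exact 95% counting intervals, or a floor of 3 reads over the group; both cover counting error only. Per the study the 3 libraries of a group are biological replicates, with ovaries of females from separate crosses; the labels do not number crosses. Named rows were the 3 of each repeat with the highest mean and the 3 called rows with the largest change per comparison. The members, lists and tests were chosen with earlier results of these data known. Gene names were matched to the Release 6 annotation by symbol or synonym. Scripts were tested on simulated data. Alternatives used edgeR 4.0.16, DESeq2 1.42.0, other scaling, pseudocounts (0.5 and 5), filters and thresholds, each library left out and the replicate number as a block.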

Additional observations from a re-analysis of the deposited data

Results flagged for a closer look

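The size of the rise differed between knockdowns by a test of the difference itself. On the log2 scale, suste was higher in NSL1 than in NSL2 RNAi by 1.78 and in NSL3 than in NSL2 RNAi by 1.31, and mst40 was higher in NSL1 than in NSL2 RNAi by 2.71, in NSL1 than in NSL3 RNAi by 1.56 and in NSL3 than in NSL2 RNAi by 1.15 (limma, adjusted p = 9.21e-05, 0.000966, 1.45e-05, 0.00373 and 0.00665). Knockdown and fly stock cannot be told apart in these differences.

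Single rows differed in both directions. They could pass the minimum mean through the groups where they were high, so the values only describe them. In NSL1 against NSL2 RNAi, mst40.610 was higher by 3.57, suste.7592 by 4.11 and suste.7641 by 3.39. In NSL3 against NSL2 RNAi, suste.7592 was higher by 4.77 and suste.7641 by 4.10, whereas suste.6319 had a log2FC of -4.05. In NSL1 against NSL3 RNAi, suste.6319 was higher by 4.51, suste.7037 by 2.88 and suste.7355 by 3.38.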

How the results depend on the processing

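All values above are log2FC or counts of called rows. Against *white* RNAi, suste and mst40 kept direction and call with edgeR, DESeq2, scaling by genes, both pseudocounts and no filter; mst40 in NSL2 and NSL3 RNAi lay under a minimum mean of 50 and was not tested there. Exceptions in NSL2 RNAi were mst40 at an adjusted p under 0.01 (1.24), and suste (0.86) and mst40 (0.94) over rows read in *white* RNAi, a choice added after seeing the data. Leaving out a library gave 2.81 to 3.27 for suste and 3.74 to 3.93 for mst40 in NSL1 RNAi, 1.18 to 1.64 and 1.13 to 1.37 in NSL2 RNAi, and 2.38 to 2.83 and 1.98 to 2.65 in NSL3 RNAi. Between knockdowns the ranges were 1.60 to 1.93 for suste and 2.61 to 2.82 for mst40 (NSL1 against NSL2 RNAi), 0.19 to 0.63 and 1.15 to 1.86 (NSL1 against NSL3 RNAi), and 1.13 to 1.59 and 0.85 to 1.56 (NSL3 against NSL2 RNAi). Counts of suste rows moved with the filter by its construction: with no filter 179, 23 and 73 rose in NSL1, NSL2 and NSL3 RNAi, and 16 mst40 rows in NSL1 RNAi, while at a minimum mean of 50 there were 1 in NSL1 and 2 in NSL3 RNAi. In NSL2 RNAi 2 suste rows passed an adjusted p under 0.01. Leaving out a library gave 19 to 27, 2 to 7 and 14 to 18 suste rows in NSL1, NSL2 and NSL3 RNAi and 1 to 3 mst40 rows in NSL1 RNAi; for NSL2 RNAi the 2 came without NSL2 RNAi replicate 2 and the 7 without *white* RNAi replicate 3. Between knockdowns 13 to 16 suste and 1 to 2 mst40 rows (NSL1 against NSL2 RNAi), 2 to 3 and 1 (NSL1 against NSL3 RNAi), and 12 to 14 higher, 2 to 3 lower and 0 to 1 mst40 rows (NSL3 against NSL2 RNAi) were called. The cause was not tested. Scaling by genes brought the median log2FC of genes to 0.02 (from -0.13) in NSL1 RNAi and to -0.02 (from -0.12) in NSL3 RNAi. Library numbers deviated together in no comparison (correlation of same-numbered deviations -0.27 to 0.20), and with the replicate block suste and mst40 stayed called, with log2FC of 3.02 and 3.81, 1.38 and 1.24, and 2.58 and 2.27.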
